A study of Mus musculus with 4 samples.

Results

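The genes described here are 10 acute phase genes of the mouse liver, read from 2-colour arrays that set mutant liver against wild-type liver in 4 lines of mice. They are the serum amyloid A genes Saa1, Saa2 and Saa3, the pentraxin gene Apcs, the lipocalin gene Lcn2, the fibrinogen-like gene Fgl1, the chemokine gene Cxcl1, the haemoglobin and haem carriers Hp and Hpx, and the orosomucoid gene Orm2. They were selected by name, as the probes annotated to 1 of these genes alone. All 10 were measured, by 11 probes, among 9285 named genes in all; Hp had 2 probes and each of the other 9 genes had 1.

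Livers came from male mice of B6/FVB strain, 7 to 8 weeks old, fed a diet with sufficient selenium, and mutants were compared with wild-type littermates, labelled Trsp. Trsp is the gene of the selenocysteine tRNA, which carries selenocysteine to the ribosome and is needed for every selenoprotein. DTrsp mice are knockout mice that lack Trsp in the liver (4 animals). A34 mice are transgenic, with 2 copies of a Trsp transgene changed from T to A at position 34 (4 animals); G37L mice carry 2 copies (4 animals) and G37H mice 16 copies (3 animals) of a transgene changed from A to G at position 37. Not stated in these labels is whether transgenic livers kept their own Trsp, what drove the loss of Trsp in the DTrsp liver, or whether a transgenic line descends from 1 founder.

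The acute phase response is the change in plasma protein production that follows inflammation or injury. Cytokines of the interleukin-6 and interleukin-1 families reach hepatocytes and act through STAT3, C/EBP and NF-kB factors, and transcripts such as those of serum amyloid A, which binds high-density lipoprotein, can rise steeply. In the mouse, Saa1, Saa2 and Apcs are classic markers of this response, while Lcn2, Saa3 and Cxcl1 are also made by cells other than hepatocytes, such as macrophages.

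The start regions of 5 of these genes are shown as examples. All 8 start regions that were available hold matches to motifs of the factors named above. Each is the 250 bases just before the annotated start of transcription, on the strand of the gene, 5′ to 3′, from RefSeq on build GRCm38.p6, and the capitals mark motif matches. Saa1 (chr7:46742981-46743230, minus strand), Saa2 (chr7:46751583-46751832, plus strand), Saa3 (chr7:46715677-46715926, minus strand), Cxcl1 (chr5:90890995-90891244, plus strand) and Apcs (chr1:172895055-172895304, minus strand) read as follows.
Saa1: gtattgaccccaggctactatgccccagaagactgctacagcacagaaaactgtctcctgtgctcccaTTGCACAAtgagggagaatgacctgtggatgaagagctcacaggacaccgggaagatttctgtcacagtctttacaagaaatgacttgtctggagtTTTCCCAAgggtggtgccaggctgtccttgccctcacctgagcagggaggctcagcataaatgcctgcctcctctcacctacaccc
Saa2: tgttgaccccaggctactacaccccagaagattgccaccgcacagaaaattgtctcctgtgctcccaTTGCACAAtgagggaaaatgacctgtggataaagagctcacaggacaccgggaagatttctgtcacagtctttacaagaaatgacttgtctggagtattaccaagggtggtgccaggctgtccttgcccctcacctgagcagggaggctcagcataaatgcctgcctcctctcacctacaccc
Saa3: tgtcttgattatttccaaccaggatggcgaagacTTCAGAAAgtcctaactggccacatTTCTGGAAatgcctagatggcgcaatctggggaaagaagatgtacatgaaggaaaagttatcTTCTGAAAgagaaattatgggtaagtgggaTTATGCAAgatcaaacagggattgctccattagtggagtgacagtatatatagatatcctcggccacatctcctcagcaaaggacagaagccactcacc
Cxcl1: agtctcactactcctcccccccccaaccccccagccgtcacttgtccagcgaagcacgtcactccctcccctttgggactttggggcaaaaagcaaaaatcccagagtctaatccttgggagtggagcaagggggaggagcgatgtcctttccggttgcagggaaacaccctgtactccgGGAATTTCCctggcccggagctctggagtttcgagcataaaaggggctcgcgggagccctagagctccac
Apcs: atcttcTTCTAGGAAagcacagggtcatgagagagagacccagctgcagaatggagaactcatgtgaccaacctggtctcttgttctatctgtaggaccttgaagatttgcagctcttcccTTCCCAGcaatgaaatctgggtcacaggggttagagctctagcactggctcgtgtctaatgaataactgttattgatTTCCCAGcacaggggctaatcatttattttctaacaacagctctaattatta

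The motifs were searched on both strands. C/EBP was searched as TTNNGNAA and the STAT motif as TTCNNNGAA. The type II interleukin-6 element was searched as CTGGGAA, the NF-kB motif as GGANNNTCC and the TATA box by the letters TATAAA. The promoter table held 8 of the 10 genes; Hp and Fgl1 were not matched. A C/EBP match was present in 6 of the 8 windows (Saa1, Saa2, Saa3, Lcn2, Hpx and Orm2), against 36.8% of all 32851 promoter windows of the same length. The Saa1 and Saa2 windows were 94.8% identical, so these 6 are not all separate cases. Saa3 had 4 C/EBP matches, between 216 and 92 bases before the start. Cxcl1 held the NF-kB letters 70 to 62 bases before the start, and 7.27% of all windows hold them. Apcs held 1 STAT match and 2 interleukin-6 element matches, which 7.02% and 9.1% of all windows hold. The TATA box letters were found in Orm2 alone of the 8, and in 12.4% of all windows. These matches describe letters in a window and are not measured binding sites.

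**Figure D1:**
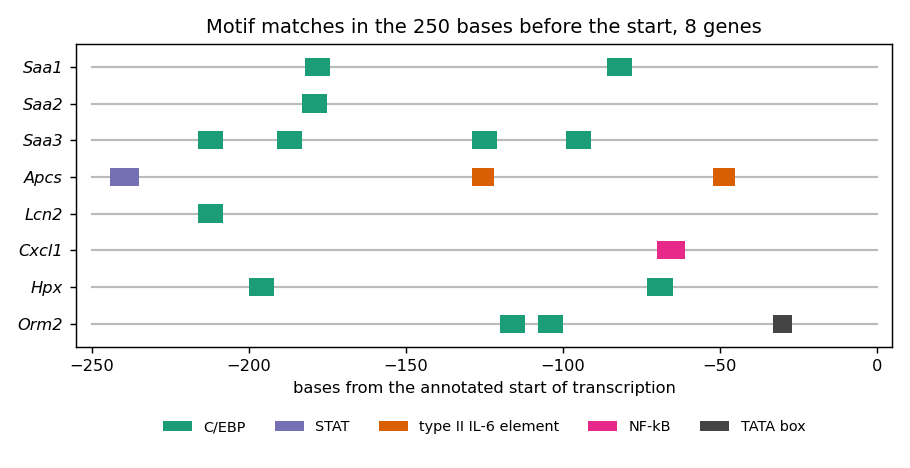
Positions of motif matches in the 250 bases before the annotated start of 8 acute phase genes; the horizontal axis is the distance from the start in bases and each coloured block is 1 match on either strand. C/EBP matches stand in 6 of the 8 genes, the NF-kB match only in Cxcl1, and the STAT and interleukin-6 element matches only in Apcs.

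Over these windows Saa1 and Saa2 were 94.8% identical, with 238 identical bases in 251 aligned columns, whereas Saa3 was 52.2% identical to Saa1, no more than unrelated pairs such as Lcn2 and Saa1 at 53.5%. The second C/EBP match of Saa1, 86 to 79 bases before the start, was not found in Saa2. Saa1 and Saa2 transcripts are also alike, so a probe of either may read both, and their values are not independent.

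Every value below is a log2 ratio of mutant over wild type that the authors averaged over animals, so the spread between animals is not in the data, and no SD, interval or p-value is given. A gene is counted as higher or lower where its log2 ratio was at least 1 above or below 0, a 2-fold change. The direction follows the dye labels, Cy5 for the mutant and Cy3 for the wild type; it is likely rather than stated, and a turned ratio would change every sign. The base of the logarithm is also not stated. Signal intensities were not used here, so ratios say nothing on how abundant a transcript was, and the liver identity of the samples could not be checked by marker levels. As a measure of agreement within the arrays, the 1791 genes with 2 probes had probes that differed by a median of 0.43 for DTrsp, 0.29 for A34, 0.31 for G37L and 0.30 for G37H. The median log2 ratio of all genes, in the same order, was 0.16, 0.07, -0.11 and -0.11.

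All 10 genes were at least 2-fold higher than wild type in G37L, and G37L was the highest of the 4 lines for each of the 10. Of the 9285 genes, 2.51% were 2-fold or more higher in G37L, and G37L was the highest line for 13.6%. In the other lines 1 of the 10 was at least 2-fold higher in DTrsp (background 3.27%), 2 in A34 (1.4%) and 4 in G37H (2.78%). None of the 10 was at least 2-fold lower in any of the 4 lines, against 1.62% of all genes in DTrsp and 0.452% in A34, then 3.96% in G37L and 3.1% in G37H. With 10 genes, a count of 0 lies near these shares. The median log2 ratio of the 10 genes was 0.26 in DTrsp and 0.70 in A34, against 3.22 in G37L and 0.82 in G37H. The 10 genes were listed with earlier results of these arrays known, so these counts describe the genes and do not test the list.

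**Figure D2:**
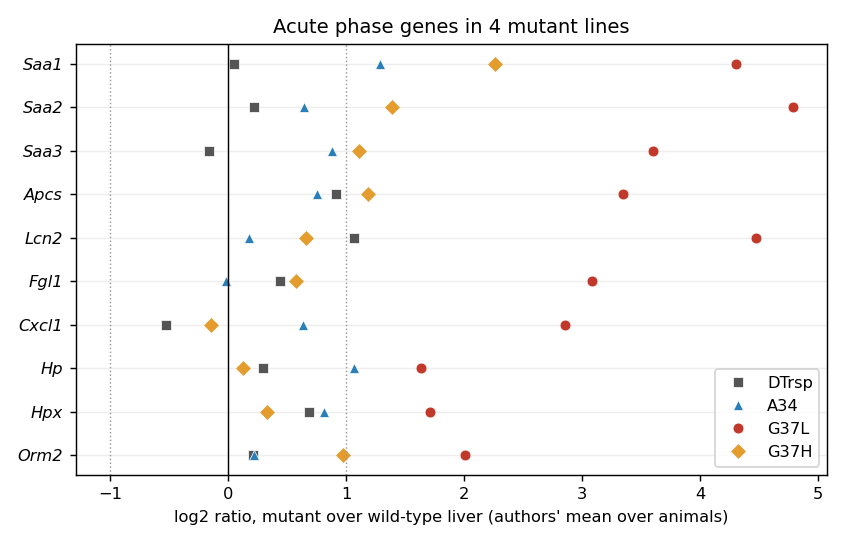
Log2 ratio of mutant over wild-type liver (horizontal axis) for each of the 10 acute phase genes (vertical axis), with 1 point for each line's average over animals; dotted lines mark 2-fold. The G37L points lie between 1.63 and 4.79, to the right of the other 3 lines in every gene, while DTrsp lies between -0.53 and 1.07.

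The serum amyloid A genes encode small apolipoproteins that become a major plasma protein during inflammation. Saa1 had a log2 ratio of 0.05 in DTrsp and 1.29 in A34, then 4.31 in G37L and 2.27 in G37H. It was thus level with wild type without Trsp and higher in each of the transgenic lines, 19.8-fold in G37L and 4.81-fold in G37H. Saa2 stood at 0.22 in DTrsp and 0.64 in A34, against 4.79 in G37L and 1.39 in G37H. At 27.7-fold it was the highest of all 9285 genes in G37L, with Saa1 at rank 4. Saa3, the form also made by macrophages, was at -0.16, 0.88, 3.61 and 1.11 in DTrsp, A34, G37L and G37H. The order of the lines was the same for all 3 genes: G37L, then G37H, A34 and DTrsp. In G37H the 3 ranked 9, 85 and 192 among all genes, for Saa1, Saa2 and Saa3.

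These genes form a cluster on chromosome 7, where RefSeq orders them Saa3, Saa4, Saa1 and Saa2. Saa4, a serum amyloid gene known for constitutive expression and not among the 10, was at 0.75 in DTrsp and 0.43 in A34, then 1.82 in G37L and 1.56 in G37H. Its order of G37L and G37H followed that of the other 3, with a smaller gap. The nearest measured neighbours outside the cluster were chosen by position alone. In G37L the 3 on one side, Abcc6, Nomo1 and Sergef, were at -0.56, 0.02 and 0.88, and the 3 on the other, Hps5, Gtf2h1 and Ldha, at -0.26, -0.04 and 1.05. Ldha, lactate dehydrogenase A, was the 1 neighbour of the 6 at least 2-fold higher in G37L, and none of the 6 reached the Saa4 value there.

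Apcs encodes serum amyloid P, a pentraxin that binds amyloid and microbial surfaces and is the main acute phase pentraxin of the mouse. Its log2 ratio was 0.92 in DTrsp and 0.75 in A34, against 3.35 in G37L and 1.18 in G37H. Outside G37L the 3 values lay within 0.43 of each other, with A34 and G37H farthest apart. The median gap between 2 probes of 1 gene was 0.43 in DTrsp, but smaller in A34 and G37H, at 0.29 and 0.30. Crp, the related C-reactive protein gene, which responds weakly in mice, was at 0.61, 0.19, 1.08 and 0.41 in the same order; it was chosen after its values were seen.

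Lcn2 encodes lipocalin 2, which withholds iron from bacteria by binding their siderophores. It stood at 1.07 in DTrsp and 0.18 in A34, then 4.47 in G37L and 0.66 in G37H. It was the single member at least 2-fold higher in DTrsp and the second highest of all genes in G37L, at 22.2-fold. Relative to the median of all genes the DTrsp value was 0.91, which is below 2-fold. Fgl1, a hepatocyte protein of the fibrinogen family, was at 0.44 in DTrsp and -0.01 in A34, against 3.08 in G37L and 0.58 in G37H. It was 8.48-fold higher in G37L, and in A34 it did not stand apart from wild type.

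Cxcl1 encodes a chemokine that draws neutrophils. Its log2 ratio was -0.53 in DTrsp and 0.64 in A34, then 2.85 in G37L and -0.14 in G37H. It was the 1 member below 0 in G37H and the lowest of the 10 in both DTrsp and G37H, and at 7.22-fold it ranked 15 in G37L. Of a list of 30 other chemokine genes 14 were measured, and Cxcl2, Cxcl3 and Cxcl5 were not among them. None of the 14 came near Cxcl1 in G37L. There 1 was at least 2-fold higher, the interferon-induced Cxcl10 at 1.21, and 1 at least 2-fold lower, Xcl1 at -1.52. With 14 genes, these counts lie near the shares of all genes in G37L, 2.51% higher and 3.96% lower. The median of those 14 was 0.13 in DTrsp and 0.13 in A34, against -0.12 in G37L and -0.18 in G37H.

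Hp, haptoglobin, binds free haemoglobin, and Hpx, haemopexin, binds free haem; both carry their cargo to clearance by receptors. Hp was at 0.30 in DTrsp and 1.07 in A34, then 1.63 in G37L and 0.12 in G37H, as the mean of 2 probes. The first probe read 0.60, 0.47, 1.5 and 0.22, and the second -0.01, 1.67, 1.77 and 0.03, in that order of lines. The probes were close in G37L and G37H, but in A34 they differed by 1.21, a gap that 2.4% of genes with 2 probes reached in that column. With the second probe alone A34 would stand 0.09 below G37L, and with the first probe alone 1.03 below, so the place of Hp in A34 depends on the probe. Hpx was at 0.69 in DTrsp and 0.81 in A34, against 1.71 in G37L and 0.33 in G37H. Hpx had A34 second and G37H lowest, unlike the serum amyloid genes. The mean of the 2 Hp probes had the same order, but neither probe alone did. The first probe placed DTrsp above A34, and the second placed DTrsp below G37H. Both genes were between 3.1-fold and 3.27-fold higher in G37L.

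The genes that take up or break down what these carriers bind were set beside them. Of 14 measured haem and iron genes, 4 were at least 2-fold higher in DTrsp (background 3.27%). In each transgenic line 1 was (background 1.4% in A34, 2.51% in G37L and 2.78% in G37H). At least 2-fold lower were 2 genes in G37L (background 3.96%), Blvra at -1.19 and Blvrb at -1.08, and none in the other lines. The haem oxygenase Hmox1 was at 4.03 in DTrsp and 0.62 in A34, then 1.27 in G37L and 1.09 in G37H. The haptoglobin receptor Cd163, a macrophage gene, was at 1.02, 0.35, 0.17 and 0.15. Hmox1 and Cd163 were therefore highest in DTrsp, where Hp and Hpx stood at 0.30 and 0.69. Also at least 2-fold higher in DTrsp were Blvrb at 1.68 and Slc40a1 at 1.64. The rest of the list was not, with Blvra at -0.15, Lrp1 at -0.24 and Hmox2 at 0.15 in DTrsp. Lrp1 and Hmox2 were chosen after their values were seen.

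Orm2 encodes an alpha-1-acid glycoprotein, a plasma carrier of drugs and lipids. It was at 0.21 in DTrsp and 0.22 in A34, against 2.01 in G37L and 0.98 in G37H, just under 2-fold in the last. The neighbouring gene Orm1, which is alike in sequence and may share its signal, was at 1.07, 0.52, 2.10 and 1.17. The 2 genes were close in G37L and G37H and differed by most in DTrsp. The 10 genes fell into a wide range in G37L, from 1.63 for Hp to 4.79 for Saa2, and 8 of them were at least 4-fold higher, which 0.334% of all genes were.

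**Figure D3:**
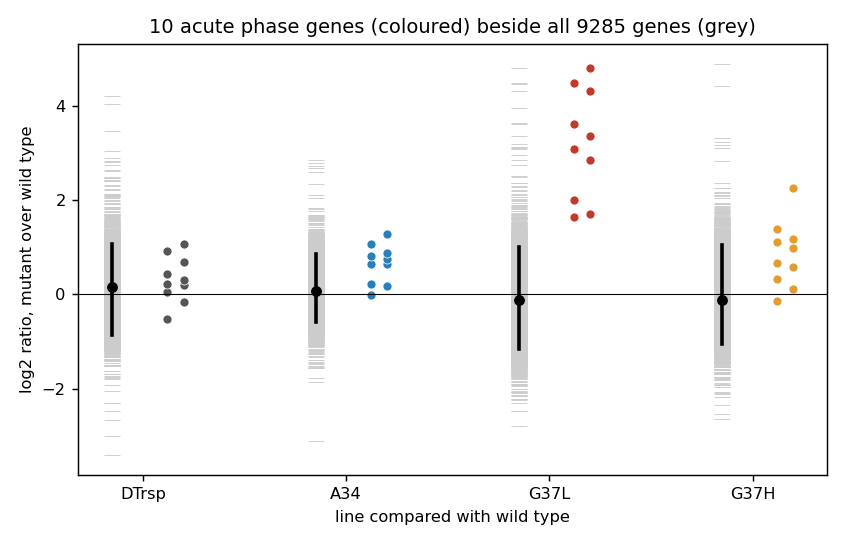
Log2 ratio of mutant over wild type (vertical axis) in each line (horizontal axis): grey ticks are all 9285 genes, the black bar their central 95% with the median as a dot, and coloured points the 10 acute phase genes. In G37L all 10 points lie above the black bar, the lowest at 1.63, whereas in DTrsp all 10 lie inside it, below 1.08.

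The G37L and G37H lines carry the same changed tRNA gene at 2 and at 16 copies, so their difference sets copy number side by side. It is the difference of 2 averaged ratios, and the labels do not say whether wild-type animals were shared. All 10 genes were at least 2-fold higher in G37L than in G37H, with a median difference of 2.33 on the log2 scale and a range from 1.03 for Orm2 to 3.81 for Lcn2; 2.67% of all genes differed as far in that direction. Lcn2, Saa2 and Cxcl1 ranked 1, 2 and 5 among all genes for this difference. The line with more copies therefore had the lower ratios for every member. The 2 lines may differ in more than copy number, such as the transgene's place in the genome, which cannot be told apart here.

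A34 and G37L both carry 2 copies, of transgenes changed at different positions. Their difference was at least 2-fold for 8 of the 10 genes, with G37L the higher (background 2.55%). The exceptions were Hp and Hpx, at 0.56 and 0.89. The largest differences were those of Lcn2 at 4.30 and Saa2 at 4.15, the top pair among all genes. Against DTrsp, G37L was at least 2-fold higher for all 10 (background 3.96%), with a median difference of 3.01. Of the comparisons without G37L, G37H minus DTrsp was at least 2-fold for 3 genes (background 4.26%), Saa1 at 2.22, Saa3 at 1.27 and Saa2 at 1.17. A34 minus DTrsp was so for 3 genes as well (background 4.48%), Saa1 at 1.24, Cxcl1 at 1.16 and Saa3 at 1.04. G37H minus A34 reached 2-fold for none of the 10 (background 2.72%), and lay between -0.95 for Hp and 0.98 for Saa1.

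**Figure D4:**
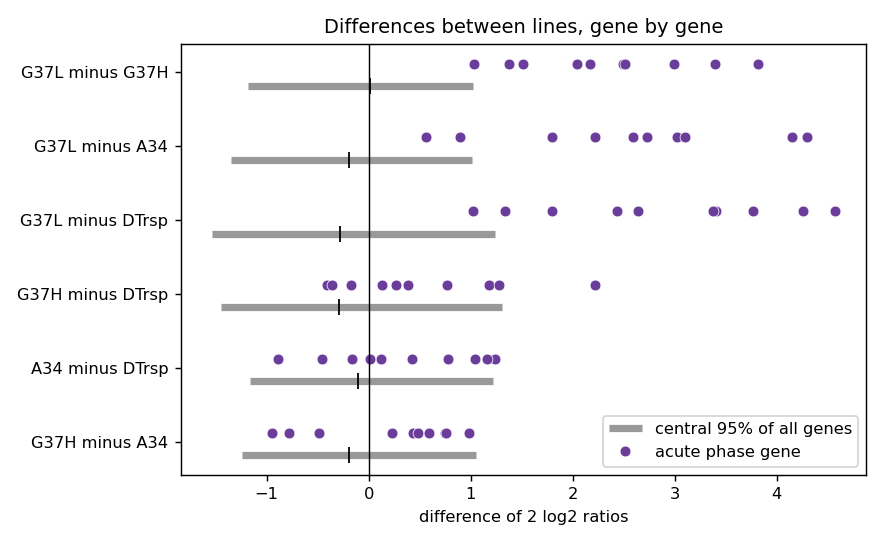
Difference between the log2 ratios of 2 lines (horizontal axis) for each of the 10 acute phase genes (points), for 6 pairs of lines (vertical axis); the grey bar spans the central 95% of all genes and the tick its median. In the 3 pairs with G37L every point lies above 0, with medians of 2.33, 2.66 and 3.01, while the 3 other pairs have points on both sides of 0.

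A list of 44 other positive acute phase genes held 33 measured ones. It had 15 genes at least 2-fold higher (background 2.51%) and none lower (3.96%) in G37L. G37H had 7 higher (2.78%) and 1 lower (3.1%). DTrsp had 4 higher (3.27%) and 2 lower (1.62%), and A34 had 4 higher (1.4%) and none lower (0.452%). The medians of the 33 were 0.93 in G37L, 0.42 in G37H, 0.30 in DTrsp and 0.31 in A34. The serine protease inhibitor Serpina3n was at 2.95 in G37L, 1.65 in G37H, 1.08 in A34 and -0.22 in DTrsp, the same order as the serum amyloid genes. The 3 fibrinogen chains Fga, Fgb and Fgg, which form the clotting protein, lay together at 1.61, 1.51 and 1.68 in G37L and between 0.26 and 0.61 in G37H. Serpina10, which inhibits activated clotting factor X, was at 1.99 in G37L and 0.37 in G37H, and the metalloreductase Steap4 at 1.69 and 0.73. The metallothioneins were also highest in G37L, but they were at least 2-fold higher in all 4 lines. Mt2 was at 4.21 in DTrsp and 1.67 in A34, then 4.46 in G37L and 4.43 in G37H. Mt1 was at 2.74, 1.48, 3.94 and 3.16 in the same order.

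Some genes of this list differed in sign between lines. The protease inhibitor A2m was at -1.38 in DTrsp and -0.80 in A34, against 2.02 in G37L and 3.24 in G37H, higher with 16 copies than with 2. The methyltransferase Nnmt was at -1.75, -0.11, 1.17 and -0.58 in the same order. Hamp2, of the hepcidin family of iron regulators, was at 1.71, 0.26, -0.91 and -1.20. Among complement genes of the list, C1ra and C1s1 were at 0.06 and 0.02 in G37L and at 0.92 and 0.95 in A34; both were chosen after their values were seen.

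**Figure D5:**
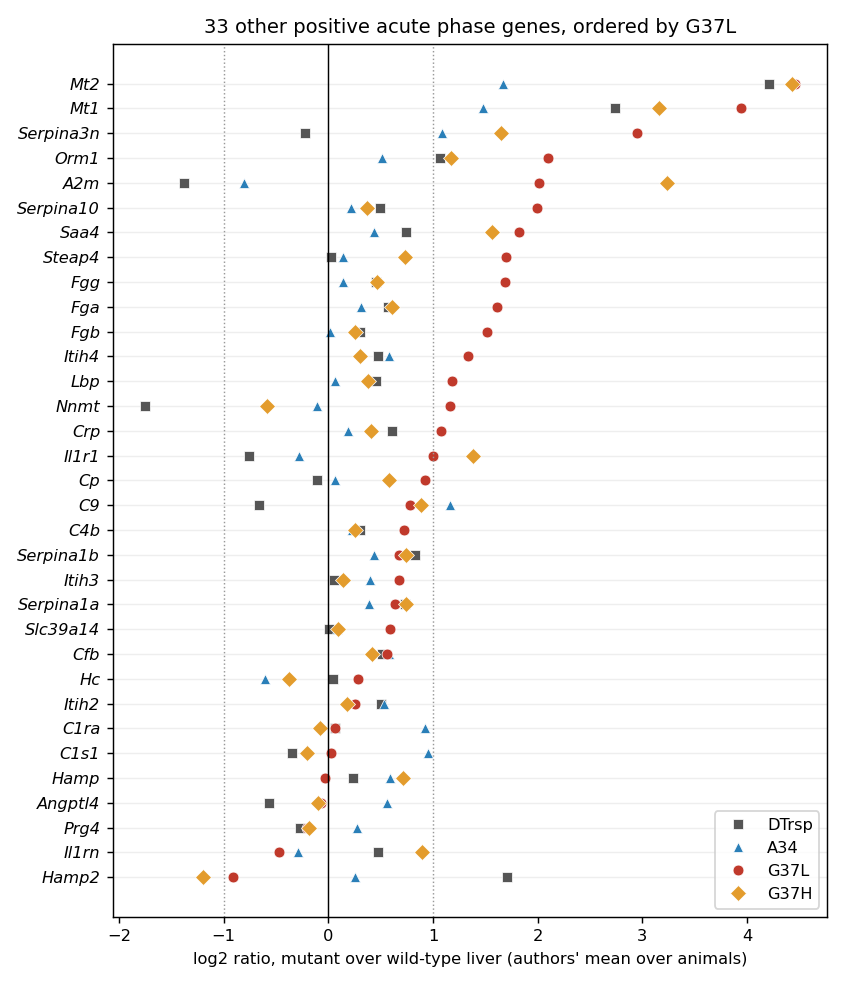
Log2 ratio of mutant over wild-type liver (horizontal axis) for the 33 other measured positive acute phase genes (vertical axis, ordered by G37L), with 1 point for each line's average over animals; dotted lines mark 2-fold. In G37L 15 genes lie at or beyond the right dotted line and none beyond the left, while Mt1 and Mt2 lie beyond it in all 4 lines and A2m is farthest right in G37H.

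Most genes that carry the signals of this response lay within 2-fold of wild type, as did most of all genes on the arrays. Of the interleukin-6, STAT3 and C/EBP pathway 25 genes were measured, with a median of 0.09 in G37L. There 2 were at least 2-fold higher (background 2.51%) and 2 lower (3.96%). The higher ones were Socs3, the feedback inhibitor that STAT3 induces, at 1.25, and Bcl3, an IkB family protein, at 1.03. Socs3 stood at -0.31 in DTrsp, 0.71 in A34 and 0.81 in G37H, again with G37L highest and DTrsp lowest. Stat3 itself was at 0.36, 0.65, 0.89 and 0.08 in DTrsp, A34, G37L and G37H; it was chosen after its values were seen. The lower ones were Cish, a feedback inhibitor of cytokine receptors, at -1.06, and the glucocorticoid receptor Nr3c1 at -1.0. The same list had 1 gene higher in G37H (background 2.78%), Socs2 at 1.12, and none past 2-fold in DTrsp or A34.

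Of the interleukin-1, TNF and NF-kB pathway 24 genes were measured, with a median of -0.04 in G37L. There 3 were at least 2-fold higher (background 2.51%) and 2 lower (3.96%). The higher ones were the decoy receptor Il1r2 at 1.36, the lipopolysaccharide-binding Lbp at 1.18 and the lipopolysaccharide receptor Tlr4 at 1.14. The lower ones were Birc3 at -1.89 and Vcam1 at -1.15. Il1r2 and Tlr4 were as high in G37H, at 1.62 and 1.35, with the receptor Il1r1 at 1.38. In DTrsp 1 gene of the list was 2-fold higher (background 3.27%), Ikbkg at 1.03, chosen after its values were seen, and in A34 none was.

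Negative acute phase genes, whose products decline in plasma during inflammation, lay on both sides of wild type. In G37L 3 of the 28 measured were at least 2-fold lower (background 3.96%) and 1 higher (2.51%), with a median of 0.07. In G37H 2 were lower (background 3.1%) and none higher (2.78%), with a median of 0.11. The lower ones in G37L were the sterol hydroxylase Cyp8b1 at -1.29, the corticosteroid carrier Serpina6 at -1.28 and the lipogenic Thrsp, chosen after its values were seen, at -1.16, and the higher one was the thyroxine carrier Serpina7 at 1.88. Both Serpina7 and Cyp8b1 differed in sign between lines: Serpina7 was at 1.70 in DTrsp but -1.44 in A34 and -1.38 in G37H, and Cyp8b1 was at 1.52 in DTrsp, -0.74 in A34 and -0.53 in G37H. Alb and Ttr, for albumin and transthyretin, were at 0.67 and 0.50 in G37L; both were chosen after their values were seen. In DTrsp 2 of the list were higher (background 3.27%) and 1 lower (1.62%), with a median of 0.34. In A34 1 was higher (background 1.4%) and 1 lower (0.452%), with a median of 0.32.

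Some macrophage markers were at least 2-fold higher beside the members, though most in each line were not, and their part in the result was not tested. Of 24 measured Kupffer cell and macrophage markers, 9 were at least 2-fold higher in G37L (background 2.51%) and 6 in G37H (2.78%). In A34 3 were higher (1.4%) and 1 lower (0.452%), and in DTrsp 2 were higher (3.27%). None was at least 2-fold lower in G37L, G37H or DTrsp. The lower one in A34 was the Fc receptor gene Fcgr1 at -1.55, which was at 1.13 in G37L and 1.24 in G37H. Their medians were 0.73 in G37L, 0.52 in G37H, 0.63 in A34 and 0.08 in DTrsp, and their values in G37L ran from -0.22 to 1.60. The perforin-like Mpeg1 was at 1.60 in G37L and 1.36 in G37H, Ctss, a lysosomal protease, at 1.37 and 1.01, and the Kupffer cell receptor Vsig4 at 1.03 and 1.56. A change in the number of cells of a type and a change in the RNA of each cell cannot be told apart in such samples. Of 4 measured neutrophil markers, 1 was at least 2-fold higher in G37L (background 2.51%), S100a8 at 1.23. The others were S100a9 at 0.46, Mmp9 at -0.69 and Csf3r at -0.89. The 4 measured lymphocyte markers were between -1.04 and -0.60 in G37L. The 23 hepatocyte markers had medians of 0.59, 0.34, 0.35 and 0.26 in DTrsp, A34, G37L and G37H. Fgb, itself an acute phase gene, was the only one 2-fold higher in G37L (background 2.51%). None was 2-fold lower there (3.96%), though G6pc was at -0.99. In A34 (0.452%) and G37H (3.1%) G6pc was the only marker at least 2-fold lower, at -1.02 and -1.15.

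Endoplasmic reticulum chaperones, which fold secreted proteins, were also higher in G37L. Of 17 measured, 10 were at least 2-fold higher (background 2.51%) and none lower, with a median of 1.28. In G37H none was at least 2-fold higher (background 2.78%), with a median of 0.24. Creld2 was at 3.11 and Manf at 2.35 in G37L, against 0.62 and 0.39 in G37H. In DTrsp and A34 1 gene each was at least 2-fold higher (background 3.27% and 1.4%).

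The genes whose 4 ratios lay closest to the median profile of the 10, by Euclidean distance over the 4 lines, were Alk, Lrg1, Creld2, Ly6d, Serpina3n, Oas3, 2010003K11Rik and Manf, at distances of 0.71 to 1.30. Alk, a receptor tyrosine kinase gene, was at 3.13 in G37L and 0.69 in G37H. Lrg1, a leucine-rich glycoprotein secreted by the liver, was at 0.34, 0.64, 2.27 and 0.72 in DTrsp, A34, G37L and G37H. For Saa1 the 3 closest were Saa2, Saa3 and Serpina3n, and for Saa3 they were Serpina3n, Apcs and the glucuronosyltransferase Ugt2b38, at distances of 0.87 to 1.13. With 4 values per gene this measures likeness of size and order only.

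The decimals of the values bear on how many arrays were averaged. No value of the 11 probes showed the step of an average over 3 arrays in DTrsp, A34 or G37L, where 14.0%, 13.5% and 5.77% of all probes did. In G37L 4 of the 11 values had steps that an average over 4 arrays gives and one over 2 or 3 does not. They were those of Saa3, Apcs, Lcn2 and Cxcl1, and 29.3% of all probes had such steps. The 6 values of Saa1, Saa2, Fgl1, Hpx, Orm2 and the second Hp probe had steps that an average over 2 or 4 arrays gives. This held for 27.2% of all probes. In G37H 7 of the 11 had the steps of a 3-array average, as did 42.1% of all probes. The remaining value in G37L, that of the first Hp probe, and the 4 in G37H, of Saa2, Cxcl1, Hpx and Orm2, had no fraction. An average over any number of arrays can give this, and 37.8% of all probes in G37L and 43.5% in G37H had none. Values without the step of 4 arrays, or of 3 in G37H, may rest on fewer arrays than the animals in the labels. The decimals cannot settle this.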

How the data were processed

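RNA from livers was measured on 2-colour oligonucleotide arrays, wild type in Cy3 and mutant in Cy5, per the labels' protocols; 15 µg of total RNA went into each labelling. The deposited table holds log2 ratios, as read here, with 1 column for each line, and per the labels each is the authors' average over 4 animals (3 for G37H). Neither the logarithm base nor the steps of background correction, normalization and spot filtering are stated in these sources. No depth applies to arrays, and the number of arrays limits the precision.

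Of 15478 probes, 12984 were named through their gene ID in the mouse gene table of GRCm38.p6 and 63 kept the symbol of the platform annotation, which is old; 110 with several genes and 2321 not listed were left unnamed. Probes of a gene were averaged to give 9285 genes, with no value missing and no filter or pseudocount. Values were not centred in the main setting. No test was run, since no replicate values are held. Counting, averaging, decimal and motif steps were tested on simulated data. Promoter windows come from RefSeq; identity is from a global alignment in Biopython 1.88. Protein likeness of the serum amyloid genes, planned at the start, was not analysed here. Python 3.11.15, pandas 2.3.3 and NumPy 2.4.6 were used.

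The members and the gene lists were chosen with earlier results of these data known. Genes named are all members, up to 6 genes of each other list with the largest absolute ratio in any line (12 for the other acute phase genes), the 8 closest to the members' median and the 3 closest to Saa1 and to Saa3; others are said to have been chosen after their values were seen, except neighbours chosen by position. Alternatives were other fold thresholds, centring, scaling, probe summaries, a natural logarithm and subsets of members.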

Additional observations from a re-analysis of the deposited data

Results flagged for a closer look

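Among the members and the genes that the naming rule picked from every list, 8 genes were at least 2-fold above wild type in 1 line and at least 2-fold below it in another, and none of the 8 was a member. The rule picked list genes by their largest absolute ratio in any line, which favours such genes. The share of all genes was not computed, so the count and the absence of members only describe these genes. Of the other positive acute phase genes, A2m was at 3.24 in G37H and -1.38 in DTrsp, a difference of 4.61 on the log2 scale. Nnmt was at 1.17 in G37L and -1.75 in DTrsp, a difference of 2.91. Hamp2 was at 1.71 in DTrsp and -1.20 in G37H, a difference of 2.91. Of the negative acute phase genes, Serpina7 was at 1.88 in G37L and -1.44 in A34, a difference of 3.32, and Cyp8b1 at 1.52 in DTrsp and -1.29 in G37L, a difference of 2.81. Blvrb, a biliverdin reductase gene of the haem and iron list, was at 1.68 in DTrsp and -1.08 in G37L, a difference of 2.76. The macrophage marker Fcgr1 was at 1.24 in G37H and -1.55 in A34, a difference of 2.78, and the immunoglobulin heavy chain gene Ighm, a lymphocyte marker, at 2.67 in A34 and -1.04 in G37L, a difference of 3.71. Each was read by 1 probe, and these differences were not tested, since each line gives 1 averaged value.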

How the results depend on the processing

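All 10 members stayed past the threshold in G37L at 3-fold, under both centrings and with the probe nearest to 0. They also did so at 1.5-fold, with a natural logarithm, with the median of probes and after scaling to the median absolute deviation of DTrsp. The 1.5-fold threshold and the natural logarithm could not lower the count, and the median of 1 or 2 probes equals their mean. Scaling changed little, since the deviations of G37L and DTrsp were both 0.297. The count was 11 of 11 probes counted singly, 9 of 9 with Saa1 and Saa2 as 1 gene, and 9 of 9 with the members that have 1 probe. Counts in the other lines depended on the setting. In DTrsp the main count of 1 was 3 at 1.5-fold, 0 at 3-fold, 0 after centring on the column median or on ribosomal and housekeeping genes, and 2 with a natural logarithm. In A34 the main count of 2 was 7 at 1.5-fold and 0 at 3-fold, and 5 with a natural logarithm or after scaling. It was 1 under both centrings, with the probe nearest to 0 (background 1.17%), with Saa1 and Saa2 as 1 gene and with 1-probe members. In G37H the main count of 4 was 6 at 1.5-fold, 1 at 3-fold and 3 with Saa1 and Saa2 as 1 gene. It was 5 after centring on the column median, with a natural logarithm or after scaling. The median of members in DTrsp turned from 0.26 to -0.28 when centred on ribosomal and housekeeping genes, whose own median there was 0.54. The other acute phase genes higher in DTrsp numbered 8 at 1.5-fold and 7 with a natural logarithm against 4. In A34 they numbered 7 at 1.5-fold, 1 at 3-fold and 9 as single probes (background 2.46%) against 4. In G37L they numbered 23 at 1.5-fold, 10 at 3-fold and 12 when centred on ribosomal and housekeeping genes against 15. In G37H they numbered 14 at 1.5-fold, 4 at 3-fold and 13 with a natural logarithm against 7. Settings not named left these list counts the same or changed them by a ratio of at most 1.5. Apart from thresholds and the base of the logarithm, whose effect follows from their construction, the cause of these shifts was not tested. The median difference of members between G37L and G37H ran from 2.09 to 2.49, and was 3.36 with a natural logarithm. No paired analysis was possible because each line is 1 averaged column, and for the same reason no replicate could be left out.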
